A study of Homo sapiens with 6 samples.

Results

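The 66 genes described here are regulators of embryonic development that were found among the 18625 genes listed for NB4, a human cell line grown from acute promyelocytic leukemia that carries the PML-RARA fusion. They were chosen by symbol: each gene was taken whose symbol consists of 1 of 16 family names, a number and at most 1 further letter. No measured value entered this rule, but the genes were chosen with earlier results of these data known. The families were the 4 HOX clusters (9 HOXA, 4 HOXB, 7 HOXC and 1 HOXD gene), other homeobox families (4 DLX genes, 3 genes of the sine oculis family, 3 each of LHX, MEIS and PBX, 2 IRX genes and 1 MSX gene), the T-box genes (3 TBX), the paired-box genes (3 PAX), the SRY-related genes (7 SOX), the zinc finger family ZIC (2 genes) and the WNT ligands (11 genes). GENCODE release 44 holds 139 protein-coding genes with such symbols, and those not listed for NB4 cells were not analysed here. Of the 66 genes, 60 had a mean of at least 10 normalized counts over the 6 libraries and were tested; HOXA2, HOXB3, WNT6, WNT9A, WNT10A and LHX1 did not.

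RNA-seq libraries were made from NB4 cells kept for 3 days with the vehicle DMSO alone or with Tan I (Tanshinone I, a lipid-soluble compound of the plant Salvia miltiorrhiza) at 10 μM, with 3 libraries in each group. The study examined Tan I as an inhibitor of EZH2, the enzyme of Polycomb repressive complex 2 that methylates lysine 27 of histone H3. The extraction text of the labels speaks of RNA from embryos, whereas the title, source and cell line labels of every library name NB4, and these were followed. Both groups were the same cell line, which stands for 1 leukemia, and nothing says that the libraries of a group came from separate cultures, so the p-values measure the spread between these libraries, which may be technical. The reads on listed genes ranged from 25356503 to 31679138 in DMSO and from 21502760 to 24298627 in Tan I. In bulk RNA, fewer cells that express a gene and less of its RNA per cell cannot be told apart.

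Homeobox, T-box, SOX, PAX and ZIC proteins bind DNA and set the identity of body regions and tissues in the embryo, while WNT proteins are secreted ligands that act through Frizzled receptors and, in the canonical branch, stabilise β-catenin. HOX genes lie in 4 clusters in which the order of the genes follows the order of their use along the body axis, and HOX proteins bind DNA together with PBX and MEIS proteins. In most differentiated tissues these genes are silenced by Polycomb complexes, whereas blood progenitors use the HOXA and HOXB clusters, and HOXA9 with MEIS1 is a known pair in acute myeloid leukemia.

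In NB4 cells the level was highest for PBX2, a widely used HOX partner, followed by HOXD13, HOXB9, ZIC2 and HOXC10. Levels were compared between genes as normalized counts per kilobase of exon. PBX2 stood at 1043 ± 114 with DMSO and 1030 ± 58.8 with Tan I (SD, n = 3 per group), above 95.1% of the listed genes. HOXD13, the only listed gene of its cluster and a regulator of limb and genital development, followed with 295 ± 54.3 in DMSO and 286 ± 56.6 in Tan I, and HOXB9 with 267 ± 33.2 and 270.3 ± 2.05. These HOX levels overlapped with each other within their spread, and ZIC2, a zinc finger regulator of forebrain development, overlapped with them at 231 ± 36.3 in DMSO and 247 ± 32.2 in Tan I. HOXC10 had 173 ± 33.1 in DMSO and 210.2 ± 35.4 in Tan I. IRX3, SOX12 and TBX1 were lower, with means over the 6 libraries of 142, 138 and 109.9.

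Most of the 66 genes were low. Their median was 33.2 normalized counts per kilobase, against 66.8 over the 18550 listed genes with a GENCODE length, and 16 of 66 lay above that median. HOXA9, the HOX gene known from acute myeloid leukemia, had 8.56 ± 3.16 in DMSO and 6.64 ± 2.28 in Tan I, and its partner MEIS1 had 6.29 ± 1.49 and 3.96 ± 0.962, both far below HOXA10 (77.5 ± 15.3 in DMSO). The lowest of all was SOX6, whose mean over the 6 libraries was 0.698. For PAX and LHX the member with the highest level depended on the length used: it was PAX8 and LHX4 per kilobase of all exons, but PAX3 and LHX6 with the length of the canonical transcript. With that length MEIS3, at 244, also stood above HOXC10, at 229.7, and TBX1 reached 211.

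**Figure D1:**
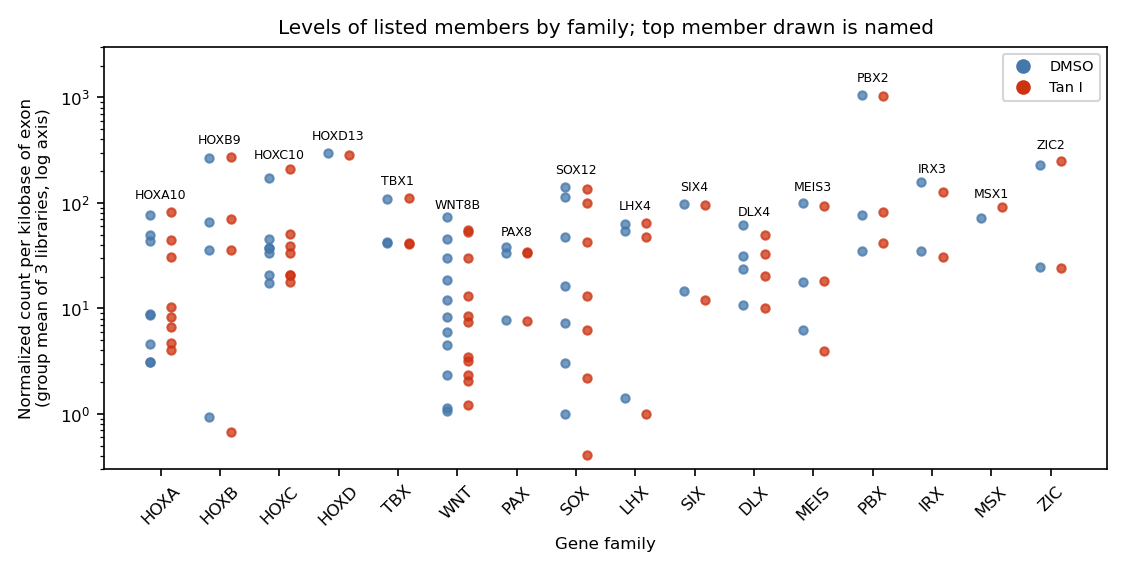
Levels of 64 of the 66 listed genes by family, as the mean of 3 libraries in normalized counts per kilobase of exon on a log axis, with DMSO in blue and Tan I in red and the top gene drawn in each family named. PBX2 stands above 1000 in both groups, while the HOXA, WNT and SOX families reach down to a few normalized counts per kilobase or fewer.

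Tan I was then compared with DMSO for the 60 genes tested. HOXC4, HOXA13 and WNT8A fell, and none of the genes rose, at an unadjusted limma p of at most 0.05 with a log2 fold change of 0.25 or more in size, the limits used by the study. These 3 genes are 5% of the 60, beside 2.42% of all 16887 genes tested, of which 1.32% were higher and 1.1% lower in Tan I. No gene of the 60 passed with Benjamini-Hochberg adjustment over all genes tested (limma adjusted p = 0.999 for each), where the smallest adjusted p of any gene was 0.118. edgeR's quasi-likelihood test on the reads recovered from the normalized counts also called 0 with adjustment, and without it the same 3 genes (2.42% of all genes). DESeq2 on those reads called the same 3 without adjustment (2.49% of all genes) and 1 with it, HOXC4 (adjusted p = 0.0027), beside 0.107% of the genes for which it gave an adjusted p. It gave none for WNT8A, among others of the 60.

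The number of genes called without adjustment was 5 of 60 after rescaling (2.59% of all genes), when DLX4 and WNT5B were added, 5 without the variance trend of limma (3.29%), when MEIS1 and SOX10 were added, and 7 without Tan I replicate 1 (8.86%).

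Differences were small beside the spread within the groups. The median log2 fold change of the 60 genes was -0.04, against -0.0016 over all genes tested. Of the 60 genes 24 were above 0 and 36 below (50.3% of all genes were below), a split that became 44 below after rescaling each library to the same total, which moved the median of all genes to -0.061, and 31 below under quantile normalization. The direction rested on single libraries: without DMSO replicate 2, 27 of 60 were below 0 (median 0.052), and without Tan I replicate 1, 29 were (median 0.018). In size, 40 of the 60 differed by less than 0.25. The widest range within a group, on the log2 scale, had a median of 0.60 over the 60 genes, whereas the absolute difference between the groups had a median of 0.18. For 8 of 60 genes (13.3%, beside 7.89% of all genes tested) the libraries of the groups did not overlap: HOXC4, HOXA13, WNT8A, WNT5B, DLX4, LHX6 and SOX10 had all their Tan I values under their lowest DMSO value (3.97% of all genes), and HOXA3 had all of them over its highest DMSO value (3.92%). With 3 libraries against 3 an exact permutation test, two-sided, cannot go below p = 0.1, which is the value of each of these genes. HOXA2, below the minimum for testing, also had all its Tan I libraries above all its DMSO libraries (10.7 to 11.6 against 3.91 to 9.32 normalized counts). Its reads, 11, 11 and 8 in Tan I and 10, 9 and 5 in DMSO, overlapped between the groups.

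**Figure D2:**
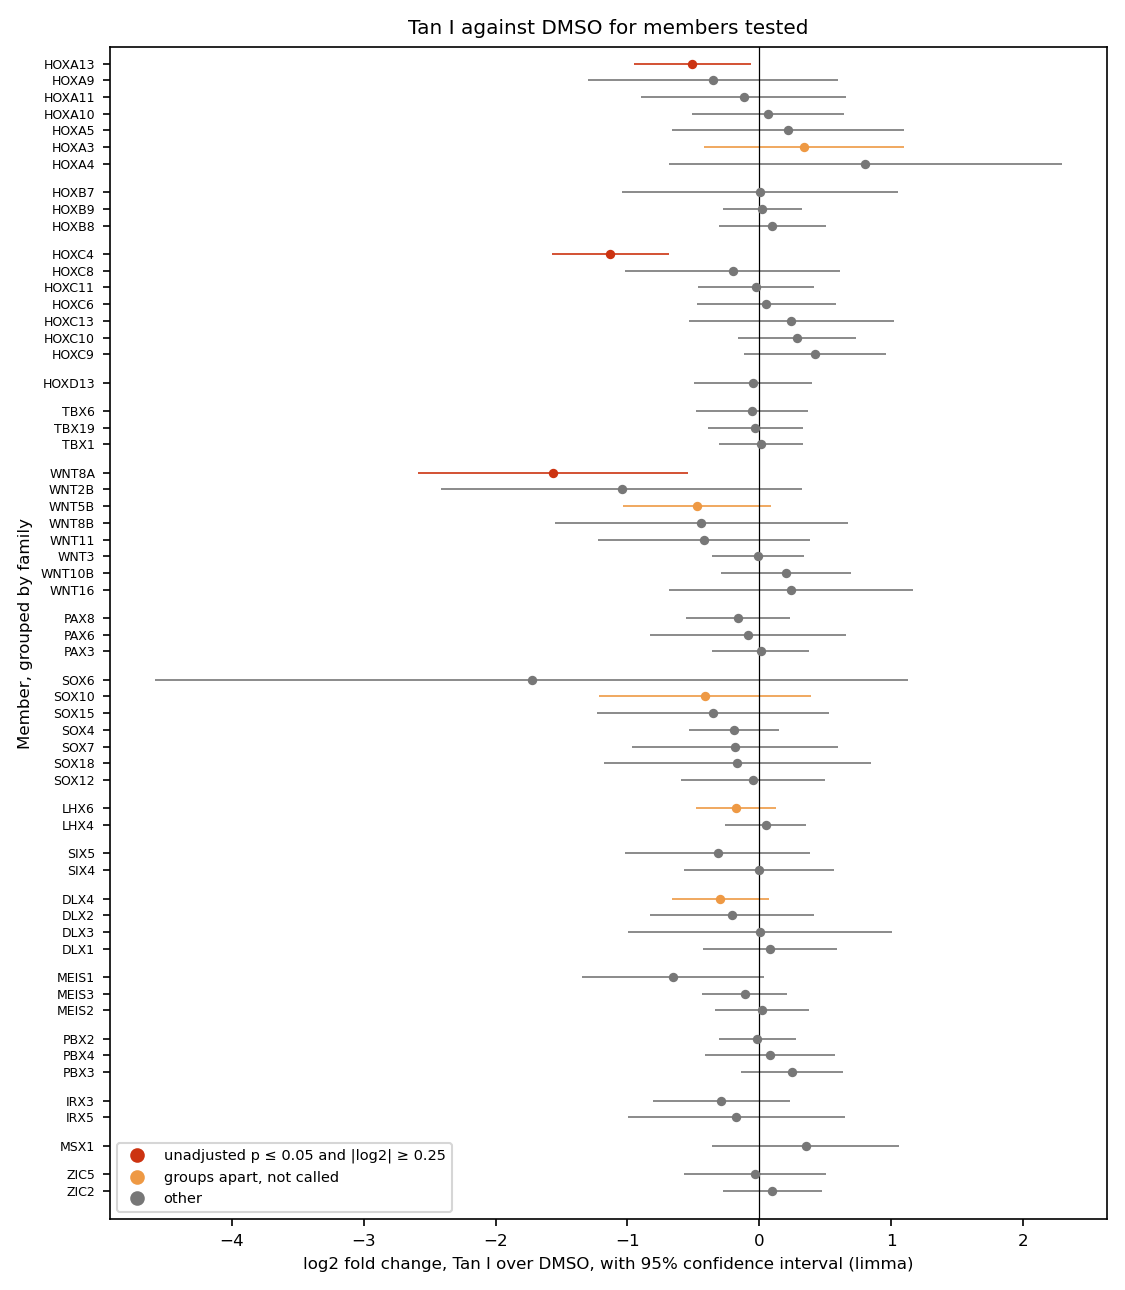
Log2 fold changes (Tan I over DMSO) and their 95% confidence intervals from limma for 58 of the 60 genes tested, grouped by family (red: called without adjustment, orange: groups that did not overlap but were not called, grey: all others). The intervals of HOXC4, HOXA13 and WNT8A lie below 0, and every interval of the genes not called includes 0.

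HOXC4, the HOXC gene used farthest to the front of the body and one that is expressed in blood progenitors, fell from 126 ± 2.61 to 57.4 ± 7.36 normalized counts (SD, n = 3 per group). The DMSO libraries had 129, 126 and 123 normalized counts and the Tan I libraries 50.8, 65.3 and 56.0. All Tan I libraries lay far below all DMSO libraries, and the gap between the groups was larger than the range within either of them. The log2 fold change was -1.13 with a standard error of 0.19 and a 95% interval from -1.57 to -0.69 (limma, unadjusted p = 4.45e-04, the fifth smallest of all genes tested). The gene was called without adjustment under all 18 alternatives, with log2 fold changes from -1.23 to -1.02. Its adjusted p ranged over the alternatives from 0.0027 in DESeq2 to 1 under quantile normalization, and was 0.00537 in limma (where 1.15% of all genes passed) when the libraries' scores on the first principal component entered the fit, an alternative chosen after the data were seen.

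HOXC4 (ENSG00000198353) spans 54016931 to 54056030 on the + strand of chromosome 12 (GRCh38, GENCODE), and the 250 bases before its RefSeq start, shown here because it is the gene whose difference held under all alternatives, carry 14 CpG dinucleotides (capitals), the sites of DNA methylation. Fewer CpGs were found in 55.3% of all RefSeq promoter windows of the same length. This start lies upstream of HOXC5, for which RefSeq gives the same window. The window also lies within the span of HOXC6 (53990624 to 54030823).
HOXC4, chr12:54016638-54016887, + strand, GRCh38.p14: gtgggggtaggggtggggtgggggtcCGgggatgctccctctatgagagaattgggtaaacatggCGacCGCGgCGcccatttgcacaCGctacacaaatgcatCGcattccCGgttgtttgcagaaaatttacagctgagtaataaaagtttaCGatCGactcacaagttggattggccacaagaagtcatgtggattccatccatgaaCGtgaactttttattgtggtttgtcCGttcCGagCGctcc

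No other HOXC gene was called or had groups that did not overlap. HOXC6, which shares 484 exonic bases (17.5% of the exonic bases of HOXC4) with it, and for which the assignment of reads on these bases is not stated, had 110.03, 153 and 126 normalized counts in DMSO and 122, 114 and 171 in Tan I, groups that overlapped. HOXC11 was at 109.8 ± 1.10 and 109 ± 17.9, and HOXC8 at 50.3 ± 18.4 and 43.2 ± 13.7 (SD, n = 3 each). HOXC9 and HOXC10, regulators of the trunk and hindlimb levels, had higher means in Tan I, with log2 fold changes of 0.42 and 0.29, but their libraries overlapped between the groups and neither was called (limma, unadjusted p = 0.106 and 0.176). The median log2 fold change of the 7 HOXC genes was 0.05 (-0.0050 after rescaling).

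The ratio of HOXC4 to each neighbour removes what a library shares between the 2 genes. It also adds any spread of the neighbour that HOXC4 lacks. HOXC6, HOXC8, HOXC10 and HOXC13 were highest within their group in DMSO replicate 2 and Tan I replicate 3, and HOXC4 was not. These ratios were chosen after the values of HOXC4 were seen, and 8 were computed, 6 for HOXC4 and 2 for HOXA13. HOXC4 over HOXC11 was 1.17, 1.14 and 1.14 in DMSO and 0.553, 0.512 and 0.525 in Tan I, a log2 difference of -1.12, and HOXC4 over HOXC6 was 1.17, 0.824 and 0.981 in DMSO and 0.416, 0.574 and 0.328 in Tan I, a log2 difference of -1.20. Against HOXC6, HOXC9, HOXC10, HOXC11 and HOXC13 the ratios of the groups did not overlap (exact two-sided permutation p = 0.1 each, 0.16 adjusted over the 8 ratios), whereas against HOXC8 they did (exact permutation p = 0.2). All 6 HOXC4 ratios use the same HOXC4 values, and the gene was picked for its fall. They are therefore a description and no separate support for that fall.

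**Figure D3:**
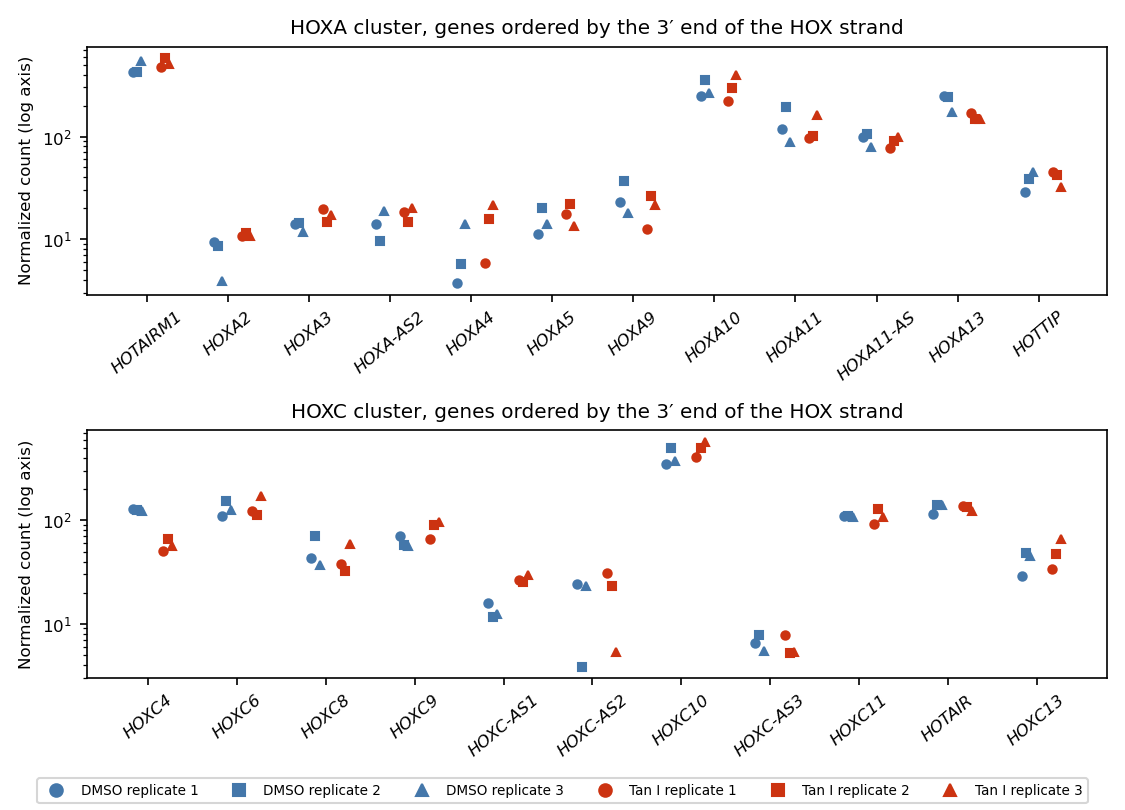
Normalized counts (log axis) of 8 of the 9 listed HOXA genes, of the HOXC genes and of noncoding RNAs of these clusters in each of the 6 libraries, with the genes ordered by the 3′ end of the HOX strand. The Tan I libraries of HOXC4, at 50.8 to 65.3, lie below its DMSO libraries at 123 to 129, while the groups of HOXC6, HOXC8, HOXC9, HOXC10, HOXC11 and HOXC13 overlap.

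HOXA13, the last gene of the HOXA cluster and a regulator of the hand, foot and urogenital tract, also fell. Its DMSO libraries had 249.9, 241 and 174 normalized counts and its Tan I libraries 169, 146 and 147. The groups did not overlap, but DMSO replicate 3 lay next to Tan I replicate 1. The log2 fold change was -0.51 with a standard error of 0.19 (limma, unadjusted p = 0.0305), and the call was lost when DMSO replicate 1, DMSO replicate 2, Tan I replicate 2 or Tan I replicate 3 was left out (log2 fold changes of -0.41, -0.44, -0.47 and -0.47). The ratios of HOXA13 to HOXA11 and to HOXA10 overlapped between the groups (exact two-sided permutation p = 0.4 and 0.3). HOXA10 and HOXA11 were highest within their group in DMSO replicate 2 and Tan I replicate 3, and HOXA13 was not. These ratios therefore also carry the spread of HOXA10 and HOXA11.

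HOXA13 (ENSG00000106031) spans 27193503 to 27200091 on the - strand of chromosome 7, and its window, shown for the contrast with HOXC4, carries 40 CpG dinucleotides (capitals), with fewer in 97.8% of all windows.
HOXA13, chr7:27200092-27200341, - strand, GRCh38.p14: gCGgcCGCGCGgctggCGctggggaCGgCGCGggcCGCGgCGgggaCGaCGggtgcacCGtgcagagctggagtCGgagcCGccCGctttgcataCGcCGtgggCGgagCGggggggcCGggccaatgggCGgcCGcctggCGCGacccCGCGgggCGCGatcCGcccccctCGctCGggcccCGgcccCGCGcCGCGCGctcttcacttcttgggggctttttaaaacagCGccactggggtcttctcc

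The remaining HOX genes were not called. HOXA3 had 14.0, 14.4 and 11.7 normalized counts in DMSO and 19.5, 14.8 and 17.3 in Tan I, groups that touched without overlapping. Its log2 fold change was 0.34 with a standard error of 0.32. The reads behind these values, 15, 15 and 15 in DMSO and 20, 14 and 13 in Tan I, did overlap. The groups of HOXA3 came apart only after division by the size factors. HOXA4 had the highest positive log2 fold change of the 60 genes, 0.81 with a standard error of 0.64, but with 3.73, 5.78 and 14.1 normalized counts in DMSO and 5.86, 15.8 and 21.3 in Tan I its groups overlapped. HOXA9 had 23.3, 36.6 and 17.97 in DMSO and 12.7, 26.3 and 21.3 in Tan I, and its log2 fold change of -0.35 has a 95% interval from -1.30 to 0.60. HOXB9 differed by 0.02 on the log2 scale and HOXD13 by -0.05, with signs that turned when single libraries were left out. The median was 0.02 over the 3 HOXB genes tested (-0.035 after rescaling), and over the 19 HOX genes 12 were above 0 and 7 below. This split turned to 12 below without DMSO replicate 1 and with the first principal component in the fit, to 11 below without Tan I replicate 3 and to 10 below after rescaling, and was 4 below without DMSO replicate 2 or without Tan I replicate 1. Exons of another gene on the same strand covered 31.3% of the exonic bases of HOXA4, 17.5% of HOXC4 and 15.2% of PBX2. They covered 14.0% of HOXC6 and 13.1% of HOXA9. How reads on these bases were assigned is not stated. The strand setting of the counting is not given in the sources used here. Exons of genes on the opposite strand covered 30.7% of the exonic bases of LHX4, 27.2% of HOXA11, 22.4% of PAX8, 21.5% of WNT2B, 16.4% of HOXA10, 14.7% of HOXA4, 13.9% of HOXA9, 13.1% of MEIS1 and 10.6% of HOXA3 by the widest such overlap, and less than that of each other gene among the 66 that is named here, and reads of such partners cannot be told apart.

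Of the HOX partners, MEIS1 had the largest difference. It had 78.3, 50.1 and 78.1 normalized counts in DMSO and 52.8, 45.3 and 32.0 in Tan I, so DMSO replicate 2 lay within the range of Tan I. The log2 fold change was -0.65 with a standard error of 0.30 (limma, unadjusted p = 0.0603), and it passed the unadjusted limits under 6 of 18 alternatives, among them the one without DMSO replicate 2 and the one without Tan I replicate 1. MEIS3, the MEIS gene with the highest level, differed by -0.11 and PBX2 by -0.01 on the log2 scale. MEIS and PBX belong to the TALE homeodomain proteins. Of 10 genes tested that encode proteins of this class or a PBX-binding protein, 0 were called. In Tan I 7 of these 10 were lower (8 after rescaling, 4 without Tan I replicate 3).

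Among the other homeobox families, DLX4 and LHX6 were lower in every Tan I library. DLX4, of a family that patterns the face and forebrain, had 244, 279 and 241 normalized counts in DMSO and 184, 234 and 205 in Tan I, with a log2 fold change of -0.30 and a standard error of 0.16. LHX6, a regulator of cortical interneurons, had 296, 324 and 315 in DMSO and 288, 262 and 275 in Tan I, with a log2 fold change of -0.18 and a standard error of 0.13. Neither passed the unadjusted limits of limma (limma, unadjusted p = 0.0991 and 0.209). IRX3 (log2 fold change -0.29), MSX1 (0.35), SIX4 (-0.0019) and LHX4 (0.05), each the highest of its family, had libraries that overlapped between the groups. With 1 library left out IRX3 ran from -0.43 to -0.080 and MSX1 from 0.13 to 0.60. SIX4 ranged from 487 to 867 normalized counts in DMSO and from 504 to 755 in Tan I.

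**Figure D4:**
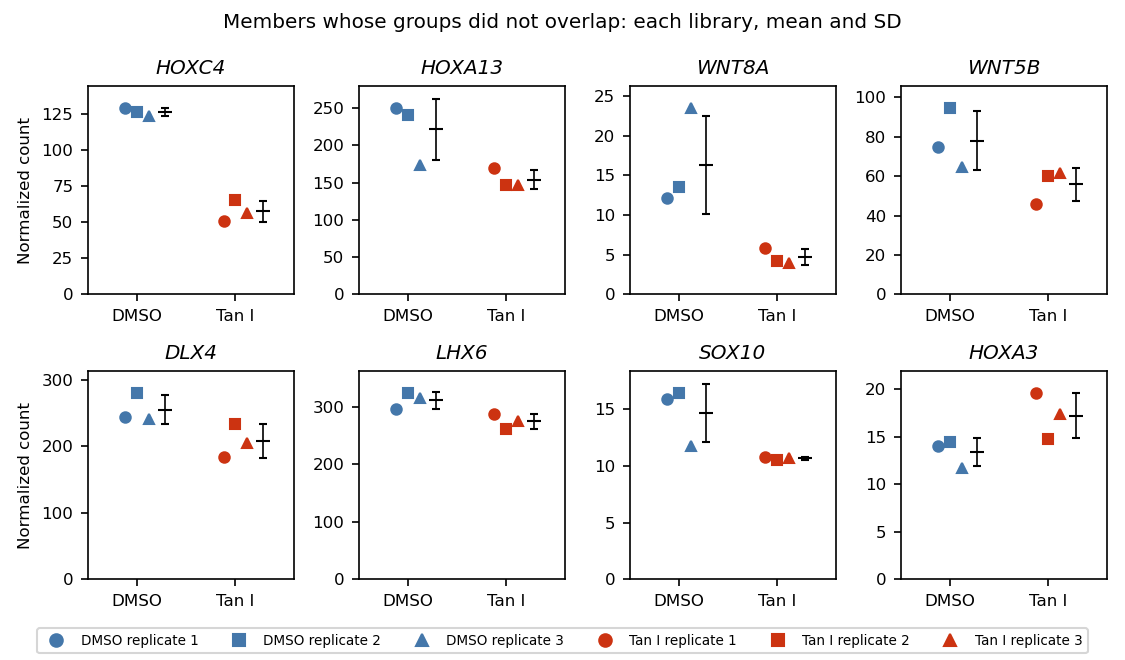
Normalized counts in each library, with the mean and SD of each group, for the 8 genes whose groups did not overlap; the symbols mark the replicate. The distance between the groups is wide for HOXC4 and WNT8A and narrow for HOXA13, LHX6, SOX10 and HOXA3.

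All 7 SOX genes tested were lower in Tan I and 0 of them was called. Their median log2 fold change was -0.19, and 7 of 7 stayed below 0 under quantile normalization and after rescaling to equal totals, but 4 of 7 did without DMSO replicate 2 and 5 of 7 without Tan I replicate 1. SOX10, a neural crest regulator, had 15.9, 16.4 and 11.7 normalized counts in DMSO and 10.8, 10.5 and 10.7 in Tan I, without overlap, with a log2 fold change of -0.41 and a standard error of 0.35. SOX12, the SOX gene with the highest level, differed by -0.05, and without DMSO replicate 2 its log2 fold change was 0.19. SOX6, which silences embryonic globin in red cell precursors, had the most negative log2 fold change of the 60 genes, -1.73 with a standard error of 1.22, and a wide spread: its normalized counts were 39.2, 3.85 and 16.4 in DMSO and 21.5, 3.16 and 0 in Tan I.

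TBX, PAX and ZIC genes differed little. TBX1, a regulator of the pharyngeal arches, had 431 ± 45.7 normalized counts with DMSO and 433 ± 26.8 with Tan I (SD, n = 3 per group), and PAX8, a thyroid and kidney regulator, had 281 ± 25.7 and 253 ± 40.7. ZIC2 had a log2 fold change of 0.10 with a 95% interval from -0.27 to 0.47. None of the 8 genes of these 3 families tested was called, and their groups overlapped.

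WNT8A, a ligand of the canonical pathway that acts in the early embryo, fell from a low level. Its DMSO libraries had 12.1, 13.5 and 23.4 normalized counts, from 13, 14 and 30 reads, and its Tan I libraries had 5.86, 4.22 and 4.001, from 6, 4 and 3 reads. The groups did not overlap, and DMSO replicate 3 stood well above the others. The log2 fold change was -1.57 with a standard error of 0.44 (limma, unadjusted p = 0.00815). Without DMSO replicate 3 it was -1.29 and no longer called (limma, unadjusted p = 0.0556).

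WNT8A (ENSG00000061492) spans 138083990 to 138092365 on the + strand of chromosome 5, and the window before its RefSeq start, shown as the third gene called, holds 4 CpG dinucleotides (capitals), with fewer in 29.4% of all windows.
WNT8A, chr5:138083783-138084032, + strand, GRCh38.p14: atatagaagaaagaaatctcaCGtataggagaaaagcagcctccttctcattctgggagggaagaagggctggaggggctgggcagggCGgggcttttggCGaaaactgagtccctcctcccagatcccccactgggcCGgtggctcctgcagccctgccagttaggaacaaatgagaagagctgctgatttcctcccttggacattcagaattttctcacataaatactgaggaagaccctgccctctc

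The promoter windows of HOXC4, HOXA13 and WNT8A were also searched on both strands for TGACAG, the core bound by MEIS proteins, for TGATTNAT, the joint PBX and HOX site, and for AGGTCA, a nuclear receptor half-site; none of these contains another. No window held one of them, and 13.1%, 2.49% and 12.1% of all windows did. Windows were at hand for 41 of the 66 genes, so no summary over the families is given.

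The other WNT ligands were not called. WNT5B, a ligand of the branch that does not use β-catenin, had 74.6, 94.4 and 64.9 normalized counts in DMSO and 45.9, 60.1 and 61.3 in Tan I, without overlap, with a log2 fold change of -0.47 and a standard error of 0.24 (limma, unadjusted p = 0.0886). WNT2B had 41.0, 17.3 and 28.9 in DMSO and 25.4, 14.8 and 5.33 in Tan I, and WNT8B, the ligand with the highest level, had 198, 83.8 and 189 and 184, 113 and 60.0. In both, DMSO replicate 2 was the lowest DMSO library and Tan I replicate 3 the lowest Tan I library, and the groups overlapped. The log2 fold change of WNT2B was -1.04 with a standard error of 0.59, and -0.48 without Tan I replicate 3. That of WNT8B was -0.44 with a standard error of 0.47, and ran from -0.84 without DMSO replicate 2 to -0.024 without Tan I replicate 3. Over the 8 ligands tested 6 were lower in Tan I (5 under quantile normalization), and the median was -0.43, which was -0.21 without DMSO replicate 3 and -0.20 without Tan I replicate 3.

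The genes that act around these regulators were read from lists written from general knowledge. Of 77 such genes tested, with the 66 genes themselves left out, 1 was called (1.30%, beside 2.42% of all genes tested), HOXC-AS1, an antisense RNA of the HOXC cluster that lies within the span of HOXC9. It rose from 15.9, 11.6 and 12.5 normalized counts in DMSO to 26.4, 25.3 and 29.3 in Tan I, without overlap, with a log2 fold change of 0.98 and a standard error of 0.30 (limma, unadjusted p = 0.0133). Its exons overlapped no exon of a listed HOXC gene. Of 7 HOX cluster noncoding RNAs tested 6 were higher in Tan I (5 after rescaling, 4 without DMSO replicate 1 or Tan I replicate 2, and 3 without Tan I replicate 1, when their median of 0.17 became -0.0018). HOTAIRM1 of the HOXA cluster had 464 ± 70.0 and 521 ± 53.2 normalized counts, while HOTAIR of the HOXC cluster had 132 ± 14.2 and 133 ± 7.84 (SD, n = 3 each).

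In the WNT pathway outside the ligands 0 genes were called. Of the 12 receptors and coreceptors tested 11 were lower in Tan I, also under quantile normalization and rescaling, and their median was -0.18 against -0.0016 over all genes; 8 of 12 were lower without DMSO replicate 1 or without Tan I replicate 3. PTK7, the receptor with the most reads, had 2479 ± 411 normalized counts with DMSO and 2178 ± 211 with Tan I. Of 10 transducers 8 were lower (9 after rescaling, 6 without Tan I replicate 2, median -0.060), with CTNNB1, which encodes β-catenin, at 2614 ± 34.0 and 2501 ± 239. Of 6 nuclear factors 4 were lower (median -0.19, PYGO2 highest), which became 3 of 6 with a median of 0.070 without Tan I replicate 3, of 4 target genes tested 4 were lower (3 under quantile normalization, 2 without Tan I replicate 3, median -0.22, NKD1 highest), and of 2 inhibitors 1 was lower (KREMEN2 highest). The lists of nuclear factors and of target genes were written with genes in common, so their counts are not separate. AXIN2, the usual feedback target of β-catenin, was below the minimum for testing, with 14.0, 9.63 and 15.6 normalized counts in DMSO and 7.82, 0 and 5.33 in Tan I. PORCN, the enzyme that lipidates WNT proteins, was lower in every Tan I library (521 ± 13.2 against 479.6 ± 8.49), as were 3.97% of all genes tested, and was not called.

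The regulators of HOX expression, most of them chromatin proteins, showed 0 calls among 16 genes tested. In Tan I 10 were higher and 6 lower (12 lower after rescaling, 9 without Tan I replicate 2), with a median of 0.0093 on the log2 scale. EZH2 had 3522 ± 418 normalized counts with DMSO and 3653 ± 288 with Tan I (SD, n = 3 per group), a log2 difference of 0.06, which turned to -0.046 without DMSO replicate 2 and to -0.0027 after rescaling to equal totals. PSIP1, an MLL partner, was the highest of this list. Calls were also 0 among the 4 EYA and DACH partners of the sine oculis proteins (EYA3 highest), the 6 partners of LIM homeodomain proteins (SSBP3 highest) and the 6 Groucho corepressors (TLE5 highest). Of these partners EYA1 was higher and DACH1 lower in every Tan I library, as were 3.92% and 3.97% of all genes tested.

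Of the promyelocyte markers, which check the cell type, 6 of 8 were listed, and MPO and CTSG, proteins of the primary granules, were called lower in Tan I (2 of 6, beside 1.1% of all genes tested). The summed level of the 6 ran from 71171 to 77317 normalized counts in DMSO and from 42027 to 50381 in Tan I, and MPO went from 62588 ± 1950 to 36602 ± 3112 (SD, n = 3 per group). Summed markers of other cells were far lower. In DMSO and Tan I they ran from 15.4 to 51.3 and from 10.7 to 28.3 normalized counts for erythroid cells (1 of 5 markers listed), from 319.8 to 479 and from 354 to 620.1 for T cells (3 of 4) and from 170.5 to 179 and from 159 to 172 for B cells (2 of 3). They ran from 120.4 to 152 and from 99.7 to 151 for fibroblasts (2 of 5), from 223 to 375 and from 276 to 435 for epithelial cells (2 of 4) and from 95.4 to 149 and from 136 to 201 for neural cells (3 of 4). None of the markers of these other cells was called, and CD2 of the T cell list was higher in every Tan I library, as were 3.92% of all genes tested. The part of any of these markers in the differences of HOXC4, HOXA13 and WNT8A was not tested.

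A pattern shared by libraries of both groups was larger than the difference between the treatments. The first principal component over these genes and all others tested held 70.8% of the variance and put DMSO replicate 2 (41.1) and Tan I replicate 3 (71.6) at one end, with DMSO replicates 1 and 3 at -48.0 and -26.7 and Tan I replicates 1 and 2 at -46.8 and 8.65. Of the 60 genes, 26 (43.3%, beside 35.0% of all genes tested) were highest within their group in both DMSO replicate 2 and Tan I replicate 3, and 12 (20%, beside 32.1%) were lowest in both. Among the former were 4 of 7 HOXC genes, 3 of 8 HOXA genes, 4 of 7 SOX genes, 3 of 4 DLX genes and both IRX and both ZIC genes, and among the latter were MEIS1, MEIS2, PBX2, PBX3, WNT2B and WNT8B. HOXC4, HOXA13 and WNT8A were in neither set. With the score on this component in the fit 10 of the 60 genes passed the unadjusted limits (beside 8.86% of all genes tested), namely HOXC4, HOXA13, WNT8A, MEIS1, WNT5B, WNT2B, DLX4, IRX3 and SOX4, lower in Tan I (4.61% of all genes), and PBX3, which was higher (4.25%). With DMSO replicate 2 and Tan I replicate 3 left out, HOXC4 had a log2 fold change of -1.12 and WNT8A of -1.58 and both stayed called (beside 2.82% of all genes), MEIS1 was called at -0.67 (limma, unadjusted p = 0.0284), and HOXA13, at -0.40, was not (limma, unadjusted p = 0.109).

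**Figure D5:**
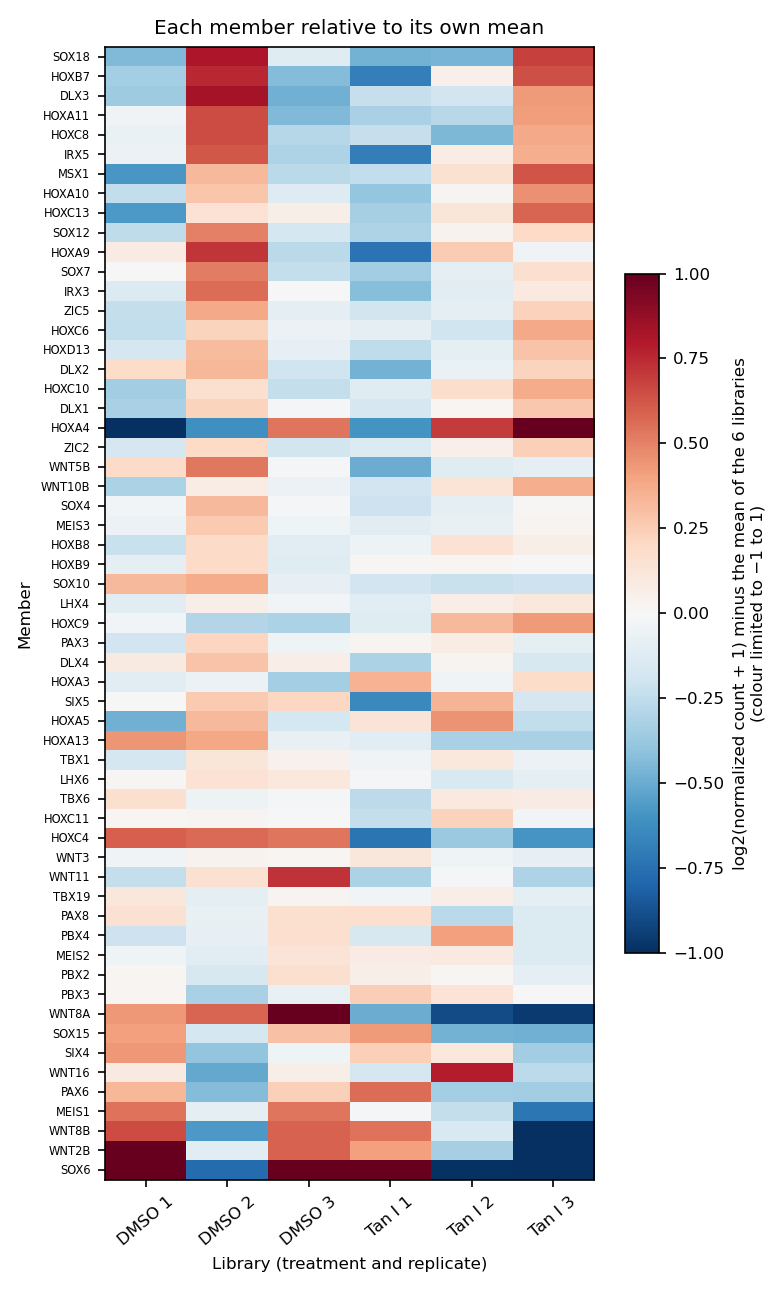
Log2(normalized count + 1) of 58 of the 60 genes tested minus the mean of each over the 6 libraries (colour, limited to -1 to 1), with genes ordered by their values in DMSO replicate 2 and Tan I replicate 3. Most genes at the top are high in these libraries of both groups, and HOXC4 and WNT8A differ from this pattern, with all DMSO libraries above all Tan I libraries.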

How the data were processed

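RNA-seq of NB4 cells was performed by the authors with paired-end reads. According to the methods and the submitters' processing notes, reads were aligned to GRCh38 with STAR, reads that mapped to several locations were removed, and reads per gene were counted with featureCounts and compared with DESeq2; versions are not given in the sources used here. The 5 columns of the authors' own comparison (log2 fold change, standard error, Wald statistic, p-value and adjusted p-value) were not used. The deposited values are counts divided by a size factor per library (a signal, in normalized counts). These values were whole multiples of 1 read for 100% of the entries (within 0.01), and the reads were recovered with size factors of 0.750 to 1.28.

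limma 3.58.1 (R 4.3.3, mean-variance trend) was fitted to log2(normalized count + 1), on which fold changes of low genes are understated, for 16887 genes whose mean reached 10. A call needed p of at most 0.05 with a log2 fold change of 0.25 or more in size. edgeR 4.0.16 and DESeq2 1.42.0 were run on recovered reads, other alternatives were changes of pseudocount, filter, normalization, variance prior, replicate block and fold limit and the omission of each library. Scripts were tested on simulated data. Named were the genes called, those whose groups did not overlap, the highest of each family per kilobase, the 5 largest rises and falls, HOXA9, MEIS1, EZH2 and, in other lists, the genes called and the highest one; HOXC6, HOXC8, HOXC11, HOXC13, HOXA10, HOXA11, MEIS2, HOTAIR, AXIN2, PBX3, SOX4, MPO and CTSG, and genes whose groups did not overlap in other lists, were named after their values were seen. The members and lists were chosen with earlier results of these data known. Lengths and positions came from GENCODE release 44, and promoters (250 bases before the start) from RefSeq, GRCh38.p14. Some results are not reported here.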

Additional observations from a re-analysis of the deposited data

How the results depend on the processing

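The number of genes called of 60 was 3 with the settings reported. It was 5 after rescaling to equal totals, 5 without the variance trend and 10 with scores on the first principal component in the fit. With 1 library left out it was 2 to 7 (beside 0.947% to 8.86% of all genes), 7 without Tan I replicate 1. With adjustment it was 1 in DESeq2 and 1 with the component. Genes whose groups did not overlap, 8 as reported, were 5 of 44 at a mean of at least 50 (7.93% of all genes) and 9 to 19 of 60 with 1 library left out, where 11% to 26.5% of all genes did not overlap (17 without DMSO replicate 2 beside 21.9%, 19 without Tan I replicate 1 beside 26.5%, 13 without Tan I replicate 3 beside 15.4%). In the other lists, 1 call became 0 at a mean of at least 50, 5 after rescaling, 9 with the component, 2 without DMSO replicate 2 and Tan I replicate 3 together, and 1 to 9 with 1 library left out (2 without DMSO replicate 2, 9 without Tan I replicate 1, 3 without Tan I replicate 3). Of all genes, 2.55%, 2.59%, 8.86% and 2.82% were called under these first 4 settings, and 2.76%, 8.86% and 1.6% without those libraries. The WNT median was -0.23 at a mean of at least 50, -0.28 with the component and -0.50 to -0.20 with 1 library left out. The ranges with 1 library left out were -0.031 to 0.22 for HOXB (0.22 without DMSO replicate 2) and -0.28 to 0.058 for PAX (-0.28 without Tan I replicate 1).

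Signs of log2 fold changes near 0 turned. With the component in the fit HOXB9 was -0.0048, PBX2 0.027, SIX4 0.14 and TBX1 -0.012. After rescaling HOXB9 was -0.035, LHX4 -0.012, TBX1 -0.050 and EZH2 -0.0027. SIX4 was 0.0046 under quantile normalization, and SOX12 was 0.081 without DMSO replicate 2 and Tan I replicate 3. With 1 library left out the ranges were -0.031 to 0.12 for HOXB9, -0.20 to 0.10 for HOXD13, -0.095 to 0.063 for PBX2, -0.20 to 0.22 for SIX4, -0.19 to 0.19 for SOX12, -0.077 to 0.073 for TBX1 and -0.046 to 0.12 for EZH2. The causes were not tested. The component and the joint omission of DMSO replicate 2 and Tan I replicate 3 were chosen after seeing the data.

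With the replicate number as a block, 3 of 60 genes were called (beside 2.06% of all genes), the same 3 genes as without it. Libraries of the same number did not go together throughout: deviations from the group means correlated at 0.75, -0.088 and -0.451 for numbers 1, 2 and 3, and DMSO replicate 2 went with Tan I replicate 3 (0.758). Whether the libraries were paired in the experiment cannot be told from these correlations. The values of WNT8A rested on 3 to 30 reads in a library.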
